A study of Mus musculus with 6 samples.

Results

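The collagen genes were taken as all symbols in the deposited count tables that read exactly Col, a number, a and a number. They numbered 44 of 24411 genes, of which 11 code for fibrillar chains, 6 for basement membrane chains and 27 for chains of other classes. The tables come from bulk RNA sequencing of mouse cerebellum at postnatal day 18, with 3 libraries from wild-type mice (WT) and 3 from mice in which the remote enhancer of Atoh7 was removed (KO). Atoh7 is a transcription factor gene best known from retinal ganglion cells, and the series title concerns its regulatory module in the retina. No source used here gives strain, sex, breeding or which cells carry the deletion. The labels call the replicates independent without saying whether each is 1 animal or a pool, so the p-values measure the spread between these samples. The tissue entry of the samples reads retina, whereas the design and the protocol read cerebellum. The summed level of 13 photoreceptor and retinal ganglion cell genes was 9.67 to 13.7 CPM (reads scaled to library size). The 9 granule neuron genes summed to 1447 to 2181 CPM, and the 8 Purkinje cell genes to 3418 to 4674 CPM.

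Collagens are secreted or membrane-bound proteins of 3 chains wound into a triple helix, which requires a glycine in each triplet of residues. Fibrillar collagens form the cables of connective tissue, type IV collagens the meshwork of basement membranes, and fibril-associated, beaded, network-forming and transmembrane types decorate fibrils or link cells to matrix. In the brain most of these proteins lie in the meninges and around blood vessels, while several transmembrane and fibril-associated chains are made by neurons.

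The repeat is visible in the genes themselves. Many fibrillar collagen exons are 54 bases long and code for 6 glycine triplets in a row. Of 627 whole coding exons in the 11 fibrillar genes, 305 (48.6%) had exactly 54 bases and 526 (83.9%) a length that is a multiple of 9. The basement membrane genes had 12 exons of 54 bases among 284 (4.23%), the fibril-associated genes 109 of 415 (26.3%) and all other coding genes 706 of 158934 (0.444%). The following are the first 54-base coding exons with a glycine codon at the head of each triplet, in GENCODE M21 transcripts on GRCm38, of fibrillar chains described below, of the fibril-associated chain with the deepest fall and, for contrast, of a basement membrane chain. The glycine codon at the head of each triplet is in capitals and the other 2 codons of each triplet are in lower case.
Col1a2: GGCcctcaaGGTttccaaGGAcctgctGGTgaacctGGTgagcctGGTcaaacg
Col3a1: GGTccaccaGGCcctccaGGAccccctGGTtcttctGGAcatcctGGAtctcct
Col5a2: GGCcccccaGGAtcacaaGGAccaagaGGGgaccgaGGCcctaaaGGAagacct
Col11a1: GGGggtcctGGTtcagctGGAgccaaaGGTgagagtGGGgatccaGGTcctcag
Col24a1: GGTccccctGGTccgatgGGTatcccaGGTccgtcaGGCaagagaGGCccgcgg
Col27a1: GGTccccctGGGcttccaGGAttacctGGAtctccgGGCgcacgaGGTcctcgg
Col16a1: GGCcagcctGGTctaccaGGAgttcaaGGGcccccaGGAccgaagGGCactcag
Col4a1: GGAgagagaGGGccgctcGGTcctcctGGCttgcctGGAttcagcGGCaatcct
They are exon 8 of Col1a2 (chr6:4515481-4515534, plus strand), exon 6 of Col3a1 (chr1:45325360-45325413, plus strand), exon 6 of Col5a2 (chr1:45434892-45434945, minus strand), exon 15 of Col11a1 (chr3:114108281-114108334, plus strand), exon 4 of Col24a1 (chr3:145320661-145320714, plus strand), exon 4 of Col27a1 (chr4:63231792-63231845, plus strand), exon 34 of Col16a1 (chr4:130067219-130067272, plus strand) and exon 7 of Col4a1 (chr8:11245211-11245264, minus strand). Each holds 6 triplets headed by glycine, while the codons between these heads differ from gene to gene and in Col11a1 include a further glycine codon in lower case.

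Reads on genes ranged from 16340132 to 34438262 per library. WT replicate 3 stood apart, with 63.2% of its gene reads on Rn45s, the ribosomal RNA precursor, against at most 3.04% elsewhere, and 6015125 reads on all other genes. Reads that met no annotated exon on the counted strand made up 34.3% ± 3.59 of the WT libraries and 17.3% ± 0.291 of the KO libraries (SD, n = 3 each). Xist, transcribed from an inactive X, was read 31134 times in WT replicate 1 and at most 10 times elsewhere. Collagen levels after scaling were highest among the WT libraries in WT replicate 3 for 37 of the 43 collagen genes with enough reads to test. The part of these differences between libraries in the results was not tested, and results that turn on WT replicate 3 are given without it.

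Collagen RNA was lower in KO across most classes. Collagen reads made up 0.110%, 0.115% and 0.130% of gene reads other than Rn45s in the WT libraries and 0.0813%, 0.0805% and 0.0785% in the KO libraries. Here and throughout, values of a group stand in the order of its replicates 1, 2 and 3. Summed over the 44 genes the level was 872, 923 and 1213 CPM in WT and 677, 659 and 642 CPM in KO, so the groups did not overlap. Of the 43 genes tested, 22 fell, 0 rose and 21 did not pass the quasi-likelihood test of edgeR, at a Benjamini-Hochberg adjusted p under 0.05 over 15519 genes. Over all tested genes 10.2% were lower by the same rule and 6.43% higher. The median log2 fold change (KO minus WT) was −0.59 for the collagens and −0.01 for all tested genes. Values were below 0 for 41 of the 43 collagens, against 50.8% of all genes. In 32 collagens all 3 KO libraries lay below all 3 WT libraries, which held for 20.5% of all genes. A fall of 2 fold or more that passed the test was seen in 8 collagens, against 1.75% of all genes. Fewer cells of a type and less RNA per cell cannot be told apart in such bulk samples.

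Without WT replicate 3, 22 collagens were lower (13.2% of all genes), 40 of 43 had values below 0, and the median was −0.45. The number lower was 22 without WT replicate 1 (8.86% of all genes), 19 without WT replicate 2 (5.87%), 16 without KO replicate 1 (5.95%), 12 without KO replicate 2 (5.33%) and 13 without KO replicate 3 (5.08%). Other size factors gave 22 (9.96%), no filter on low counts 23 (8.13%), a minimum mean of 1 CPM 23 (10.9%), DESeq2 24 (9.03%), and limma with quality weights 30 (15.3%). Counts without regard to strand gave 24 (11.8%), leaving out Rn45s 22 (10.3%), and removal of a GC content and length trend 21 (8.98%). A covariate for read assignment was built, in which the groups did not overlap. It was the log2 ratio between reads that met no annotated exon on the counted strand and reads on genes except Rn45s. With it, 8 collagens were lower, 32 had values below 0 and the median was −0.28, where 5.55% of all genes were lower. Those 8 were Col3a1, Col6a1, Col9a1, Col11a1, Col12a1, Col16a1, Col24a1 and Col27a1, and they also passed in each of the other alternatives tried.

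**Figure D1:**
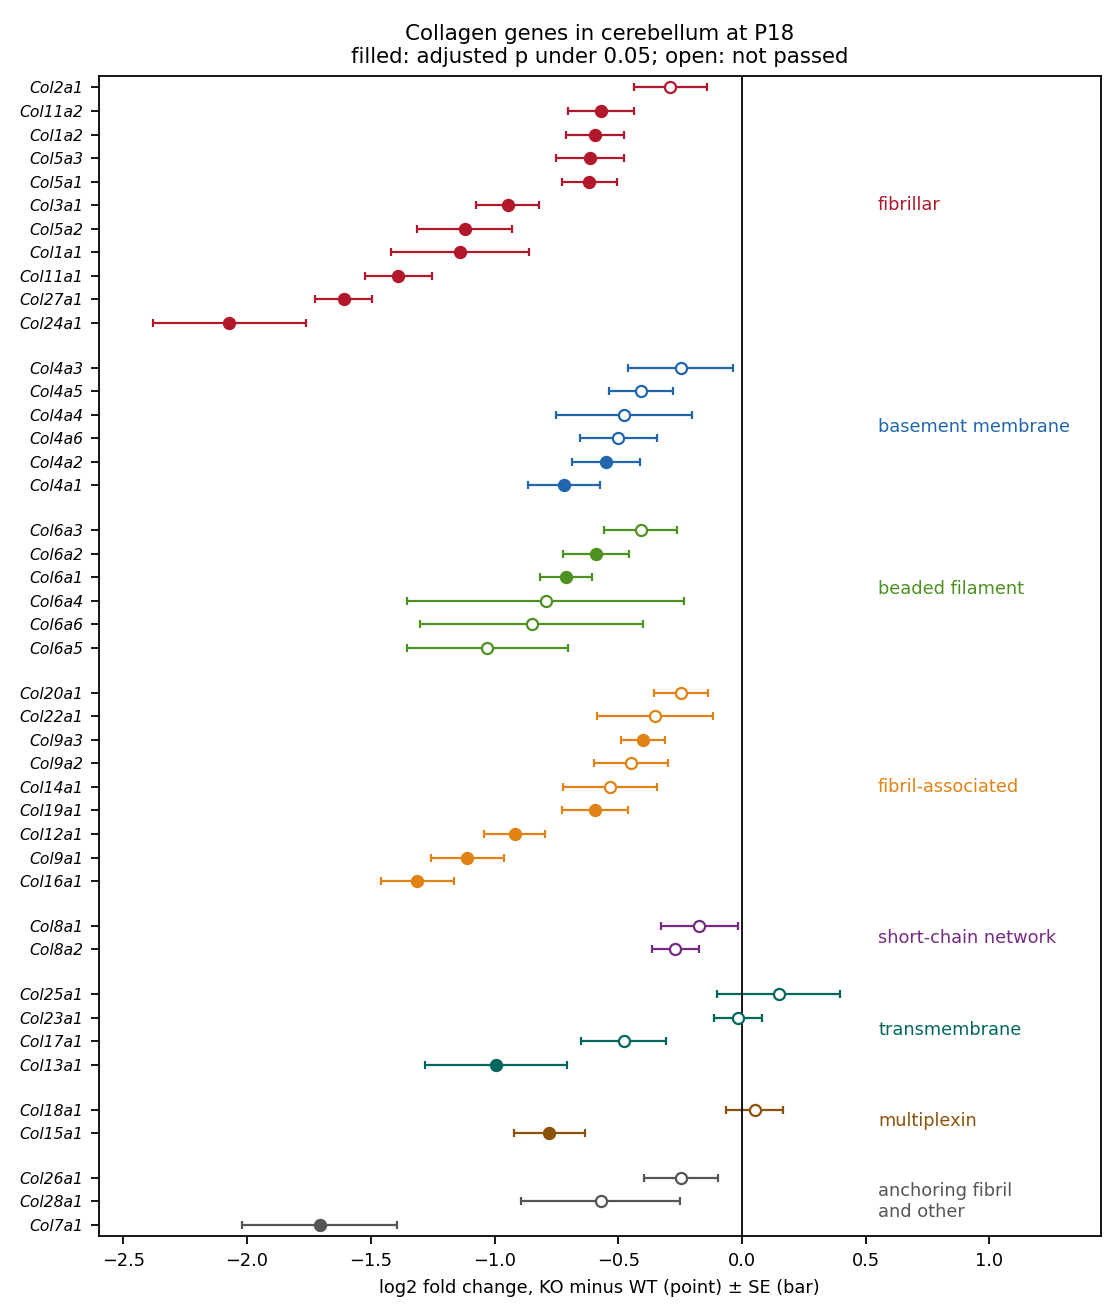
Log2 fold change (KO minus WT, x axis) of the 43 tested collagen genes, grouped and coloured by class, with bars of 1 SE. Filled points passed the test at an adjusted p under 0.05 and open points did not; 10 of 11 fibrillar genes are filled, and Col18a1 and Col25a1 are the genes to the right of 0.

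Among the fibrillar collagens 10 of 11 fell and the remaining one, Col2a1, did not pass. The class median was −0.95, and its summed level was 328, 385 and 505 CPM in WT against 228, 215 and 223 CPM in KO. Without KO replicate 2 the number lower was 6, and with the read assignment covariate 4. The deepest falls were in Col24a1, Col27a1 and Col11a1, whose chains make up minor or specialised fibrils, rather than in the abundant chains of types I and III.

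Col24a1 (chromosome 3, 145292472 to 145552011, GRCm38, as for all positions here) codes for a short-helix fibrillar chain known from developing bone and eye. Levels of Col24a1 were 3.63, 1.98 and 4.34 CPM in WT (125, 64 and 28 reads) and 0.882, 0.782 and 0.530 CPM in KO (34, 31 and 22 reads). The lowest WT library was more than 2 times the highest KO library. In KO, Col24a1 decreased by 2.07 on the log2 scale (SE 0.31; adjusted p = 0.00201), to 23.8% of WT. Col27a1 (chromosome 4, 63214004 to 63334991), a fibrillar chain of cartilage with a similar helix, had tighter replicates. For Col27a1, WT libraries gave 14.4, 14.9 and 18.1 CPM (497, 482 and 117 reads) and KO libraries 4.77, 5.45 and 4.97 CPM (184, 216 and 206 reads). Col27a1 fell by 1.61 on the log2 scale (SE 0.11; adjusted p = 2.55e-05), to 32.8% of WT. Col11a1 (chromosome 3, 114030540 to 114220718) codes for the chain that nucleates thin fibrils with types II and V. WT levels of Col11a1 were 16.2, 13.0 and 18 CPM (558, 419 and 116 reads), against 5.16, 6.34 and 6.10 CPM in KO (199, 251 and 253 reads). In KO, Col11a1 decreased by 1.39 on the log2 scale (SE 0.14; adjusted p = 0.000166), to 38.2% of WT. In each of these 3 genes all KO libraries lay below all WT libraries, and each value was past the threshold with any 1 library left out.

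**Figure D2:**
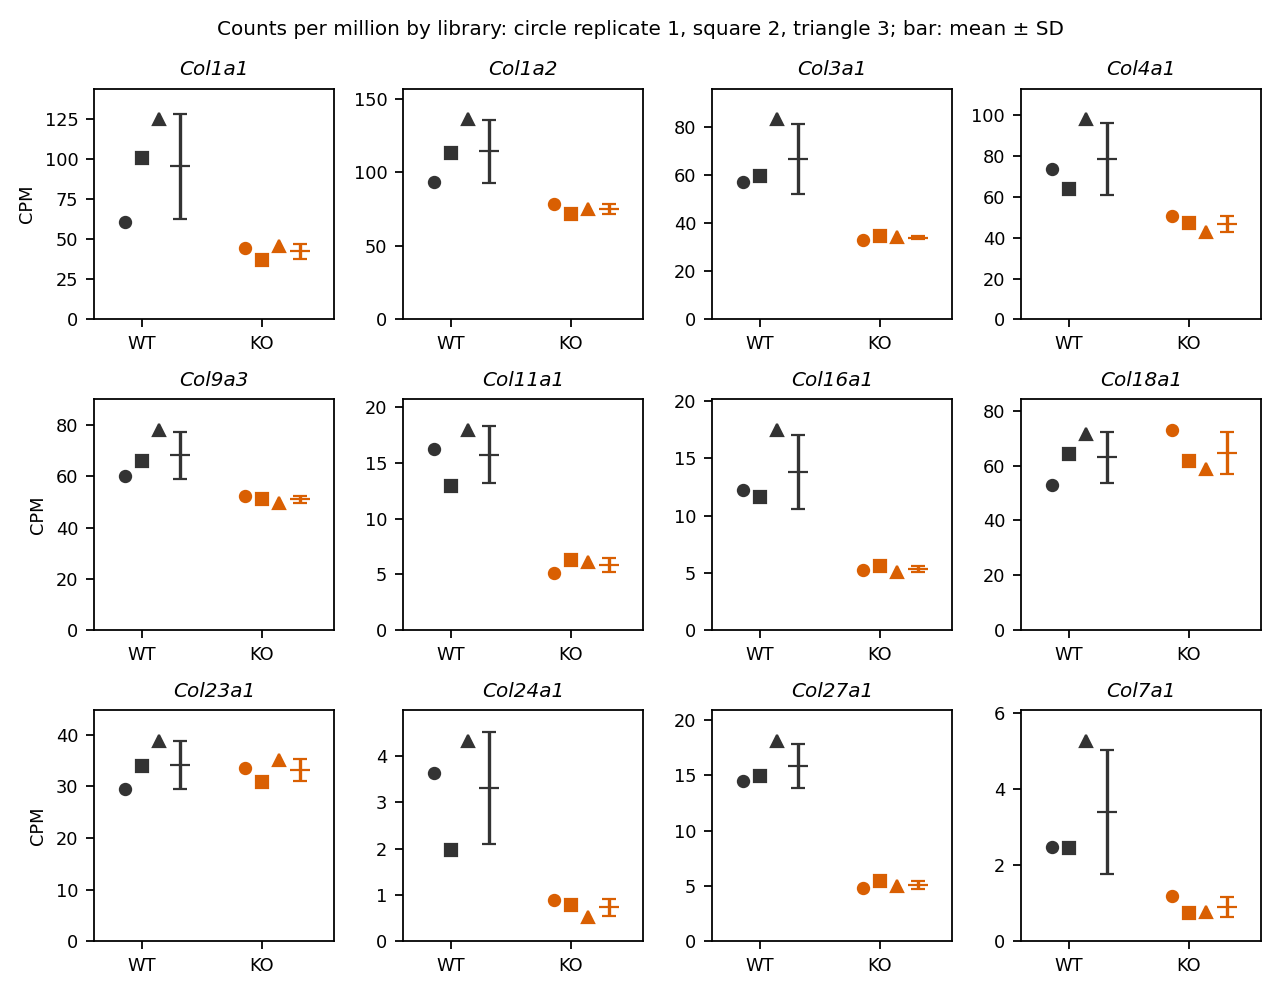
CPM (y axis, from 0) of 12 collagen genes in each library, with circles for replicate 1, squares for 2 and triangles for 3, WT in dark grey and KO in orange, and the mean ± SD at the right of each group. In Col18a1 and Col23a1 the groups overlap, and in the other 10 genes all KO points lie below all WT points, with WT replicate 3 the highest.

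The chains of type I and III collagen, the main fibrils of the meninges and of vessel adventitia, were the fibrillar chains with the most reads. Col1a2 stood at 93.6, 113 and 136 CPM in WT (3223, 3643 and 880 reads) and at 78.5, 71.8 and 74.8 CPM in KO (3028, 2844 and 3104 reads). Col1a2 fell by 0.59 on the log2 scale (SE 0.12; adjusted p = 0.00996), to 66.3% of WT. For its partner Col1a1 (chromosome 11, 94936224 to 94953042) the WT libraries were spread widely. Levels of Col1a1 were 60.5, 100.5 and 125 CPM in WT (2082, 3248 and 808 reads) and 44.8, 37.1 and 45.7 CPM in KO (1726, 1470 and 1894 reads). The log2 fold change was −1.14 (SE 0.28; adjusted p = 0.0485), close to the threshold, and the call was lost without WT replicate 2 or 3 or any KO replicate, with adjusted p of 0.101 to 0.14. The call of Col1a2 (chromosome 6, 4504814 to 4541544) was lost without KO replicate 2 (−0.56, adjusted p = 0.0517). Col3a1 (chromosome 1, 45311538 to 45349706), the chain of the homotrimeric type III fibril, was steadier. For Col3a1, WT libraries gave 57.2, 59.7 and 83.5 CPM (1969, 1928 and 539 reads) and KO libraries 33.2, 34.6 and 34.1 CPM (1281, 1370 and 1414 reads). In KO, Col3a1 decreased by 0.95 on the log2 scale (SE 0.13; adjusted p = 0.00162), to 51.9% of WT. Its KO libraries differed by less than 2 CPM from each other, and it passed with each library left out, at −0.78 without WT replicate 3.

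Type V and XI chains co-assemble with the main fibrils and limit their width. WT levels of Col5a2 were 13.4, 14.2 and 23.9 CPM (463, 459 and 154 reads), against 7.18, 7.04 and 8.0 CPM in KO (277, 279 and 332 reads). Col5a2 lies end to end with Col3a1 on chromosome 1, with 24614 bases between them, and fell by 1.12 (SE 0.19; adjusted p = 0.00593). Col5a1 stood at 16.8, 17.5 and 22.6 CPM in WT (578, 566 and 146 reads) and at 12.3, 12.1 and 11.6 CPM in KO (475, 480 and 480 reads). Col5a1 fell by 0.62 on the log2 scale (SE 0.11; adjusted p = 0.00504), to 65.2% of WT. Levels of Col5a3 were 6.48, 6.71 and 8.99 CPM in WT (223, 217 and 58 reads) and 4.54, 4.57 and 4.72 CPM in KO (175, 181 and 196 reads). The remaining type V chain, Col5a3, fell by 0.61 (SE 0.14; adjusted p = 0.0140), and its call was lost without KO replicate 1, 2 or 3 (adjusted p = 0.0571 to 0.0578). Col11a2, the second chain of type XI, had more reads than Col11a1. For Col11a2, WT libraries gave 37.7, 34.4 and 51.8 CPM (1299, 1111 and 334 reads) and KO libraries 28.2, 28.0 and 25.1 CPM (1086, 1109 and 1040 reads). In KO, Col11a2 decreased by 0.57 on the log2 scale (SE 0.13; adjusted p = 0.0194), to 67.3% of WT. Without KO replicates 1 to 3 in turn, its adjusted p was 0.0536, 0.0642 and 0.0854. Col2a1, the type II chain of cartilage and of the eye's vitreous, was at 8.10, 9.41 and 12.4 CPM in WT and 8.66, 7.37 and 7.26 CPM in KO. Its log2 fold change of −0.29 (95% interval −0.62 to 0.04; adjusted p = 0.201) did not pass, its groups overlapped, and it was at −0.17 without WT replicate 3.

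Of the basement membrane chains, 2 of 6 fell and 4 did not pass, with a class median of −0.49 and all 6 values below 0. The class summed to 162, 147 and 224 CPM in WT and 118, 115 and 110 CPM in KO. The 2 that fell, Col4a1 and Col4a2, are the chains of the common type IV network found around all vessels. They lie start to start on chromosome 8 and their annotated first exons share 22 bases on opposite strands. WT levels of Col4a1 were 73.6, 64.0 and 98.4 CPM (2536, 2068 and 635 reads), against 50.6, 47.5 and 42.8 CPM in KO (1950, 1881 and 1776 reads). Col4a1 fell by 0.72 on the log2 scale (SE 0.15; adjusted p = 0.0146), to 60.7% of WT. Col4a2 stood at 56.7, 49.0 and 76.1 CPM in WT (1952, 1583 and 491 reads) and at 41.6, 41.6 and 38.3 CPM in KO (1604, 1649 and 1589 reads). In KO, Col4a2 decreased by 0.55 on the log2 scale (SE 0.14; adjusted p = 0.0315), to 68.3% of WT. In both genes the KO range lay under the WT range. Without KO replicate 2 or 3, 0 basement membrane chains passed, with 1 without KO replicate 1. Col4a1 had an adjusted p of 0.0591 without KO replicate 2 and 0.0566 without KO replicate 3. Col4a2 was at −0.58 (adjusted p = 0.0509) without WT replicate 1, and its adjusted p was 0.0794, 0.0893 and 0.103 without KO replicates 1, 2 and 3.

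The tissue-restricted type IV chains lie in 2 further pairs that are transcribed away from each other. Col4a5 and Col4a6, 1308 bases apart on the X chromosome, were just outside the threshold, at −0.41 (adjusted p = 0.0537) and −0.50 (adjusted p = 0.0513). Col4a5 was at 21.6, 22.2 and 31.8 CPM in WT and 18.1, 17.6 and 19.1 CPM in KO, and the groups did not overlap. Without WT replicate 1, the library with Xist reads, Col4a5 was at −0.50 (adjusted p = 0.0325) and Col4a6 at −0.63 (adjusted p = 0.0349). Without WT replicate 3 they were at −0.26 (adjusted p = 0.0257) and −0.41 (adjusted p = 0.0558). Col4a3 and Col4a4, 71 bases apart on chromosome 1 and known from kidney and cochlear basement membranes, had overlapping groups at −0.25 and −0.48. Without WT replicate 3 they were at −0.0727 and −0.23, and without WT replicate 1 at −0.36 and −0.78, none of which passed. Their reads numbered 34 to 136 and 37 to 110 per library.

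The beaded filament class, type VI collagen, forms fine filaments next to basement membranes. Here 2 of 6 genes fell, the summed level was 63.9, 60.0 and 82.6 CPM in WT and 42.9, 47.9 and 40.4 CPM in KO, and the class median was −0.75. Levels of Col6a1 were 22.5, 24.2 and 27.7 CPM in WT (776, 783 and 179 reads) and 14.3, 16.8 and 13.7 CPM in KO (553, 665 and 569 reads). Col6a1 fell by 0.71 on the log2 scale (SE 0.10; adjusted p = 0.00185), to 61.2% of WT. For Col6a2, WT libraries gave 30.2, 26.6 and 40.9 CPM (1040, 860 and 264 reads) and KO libraries 21.3, 21.9 and 19.7 CPM (821, 868 and 818 reads). In KO, Col6a2 decreased by 0.59 on the log2 scale (SE 0.13; adjusted p = 0.0166), to 66.4% of WT. Both KO ranges lay below WT, but Col6a2 did not pass without KO replicate 1, 2 or 3 (adjusted p = 0.0559 to 0.0800). Col6a3, the chain that completes the common trimer, was at −0.41 (adjusted p = 0.0831) and did not pass. The alternative partner chains Col6a4, Col6a5 and Col6a6, clustered on chromosome 9, had 5 to 31 reads per library and values of −0.79, −1.03 and −0.85 with SE of 0.56, 0.33 and 0.45. None of the 3 passed (adjusted p = 0.359, 0.0554 and 0.222), and Col6a6 was at −0.56 without WT replicate 3.

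Fibril-associated collagens have interrupted helices that sit on the surface of fibrils. Of 9 measured, 5 fell and 4 did not pass, with a median of −0.53. Col16a1 (chromosome 4, 130047840 to 130099283), which joins fibrils and cell adhesions, fell most. WT levels of Col16a1 were 12.3, 11.6 and 17.5 CPM (423, 375 and 113 reads), against 5.29, 5.58 and 5.06 CPM in KO (204, 221 and 210 reads). Col16a1 fell by 1.31 on the log2 scale (SE 0.15; adjusted p = 0.000368), to 40.3% of WT. Col12a1, a long chain bound to type I fibrils, and Col9a1, a chain of type IX, fell as well. Col12a1 stood at 25.7, 25.3 and 36.3 CPM in WT (886, 819 and 234 reads) and at 15.3, 14.4 and 15.1 CPM in KO (589, 570 and 628 reads). In KO, Col12a1 decreased by 0.92 on the log2 scale (SE 0.12; adjusted p = 0.00116), to 52.9% of WT. Levels of Col9a1 were 5.31, 5.04 and 6.82 CPM in WT (183, 163 and 44 reads) and 2.65, 2.60 and 2.39 CPM in KO (102, 103 and 99 reads). Col9a1 fell by 1.11 on the log2 scale (SE 0.15; adjusted p = 0.00111), to 46.4% of WT. In these 3 genes the highest KO library was below the lowest WT library, and each passed with any library left out. Their values without WT replicate 3 were −1.17, −0.77 and −1.02.

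The values of the other type IX chains were nearer to 0. For Col9a3, WT libraries gave 60.2, 65.8 and 78.1 CPM (2074, 2127 and 504 reads) and KO libraries 52.2, 51.2 and 49.5 CPM (2012, 2028 and 2054 reads). In KO, Col9a3 decreased by 0.40 on the log2 scale (SE 0.09; adjusted p = 0.0137), to 75.7% of WT. Col9a2 did not pass, at −0.45 (adjusted p = 0.0646), with 13.7, 14.3 and 18.9 CPM in WT and 10.9, 13.0 and 9.23 CPM in KO. Col19a1, a chain made by interneurons and other neurons in brain, lies end to end with Col9a1 on chromosome 1, with 9205 bases between them. WT levels of Col19a1 were 20.6, 26.9 and 26.5 CPM (709, 869 and 171 reads), against 18.9, 14.9 and 14.7 CPM in KO (730, 590 and 609 reads). Col19a1 fell by 0.59 on the log2 scale (SE 0.13; adjusted p = 0.0148), to 66.2% of WT. Calls were lost for Col9a3 without KO replicate 2 or 3 (adjusted p = 0.0587 and 0.0759) and for Col19a1 without WT replicate 2 or KO replicate 2 or 3 (adjusted p = 0.0667, 0.0699 and 0.0788). Col14a1 (−0.53), Col20a1 (−0.25) and Col22a1 (−0.35) did not pass.

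The remaining classes were mixed, and together with the beaded and fibril-associated genes they gave 10 lower, 0 higher and 16 not passed of 26 tested. Without KO replicate 2 or 3 that number was 6, and with the read assignment covariate 4. Col7a1 (chromosome 9, 108953586 to 108984875), the anchoring fibril chain of skin, had few reads and the second deepest fall of all collagens. Col7a1 stood at 2.47, 2.44 and 5.27 CPM in WT (85, 79 and 34 reads) and at 1.19, 0.732 and 0.771 CPM in KO (46, 29 and 32 reads). In KO, Col7a1 decreased by 1.71 on the log2 scale (SE 0.31; adjusted p = 0.00594), to 30.6% of WT. The libraries did not overlap, WT replicate 3 was the highest at about 2 times the other WT libraries, and the value without it was −1.45. Col15a1, a multiplexin of vessel and muscle basement membrane zones, fell as well. Levels of Col15a1 were 10.7, 8.69 and 11.2 CPM in WT (369, 281 and 72 reads) and 6.04, 6.59 and 4.89 CPM in KO (233, 261 and 203 reads). Col15a1 fell by 0.78 on the log2 scale (SE 0.14; adjusted p = 0.00588), to 58.3% of WT. Col13a1, a transmembrane chain of adhesion sites and the neuromuscular junction, had 22 to 66 reads per library. For Col13a1, WT libraries gave 1.92, 1.70 and 3.41 CPM (66, 55 and 22 reads) and KO libraries 1.30, 1.06 and 0.747 CPM (50, 42 and 31 reads). It was at −1.0 (SE 0.29; adjusted p = 0.0398) and lost the call with any 1 library left out other than WT replicate 3 (adjusted p = 0.0563 to 0.140).

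A few collagens had small differences between the genotypes that did not pass. Col18a1 (chromosome 10, 77052178 to 77166548), a heparan sulfate multiplexin of basement membranes that yields endostatin, was at 53.1, 64.2 and 71.6 CPM in WT and 73.1, 61.8 and 58.9 CPM in KO. Its groups overlapped, and its log2 fold change of 0.05 had a 95% interval of −0.21 to 0.31 (adjusted p = 0.791). Col23a1, a transmembrane chain, was at 29.6, 34.0 and 38.9 CPM in WT and 33.6, 30.9 and 35.2 CPM in KO. The difference of −0.02 had an interval of −0.23 to 0.20 (adjusted p = 0.935). Col25a1, a neuronal transmembrane collagen first found in amyloid plaques, varied widely within groups. It was at 30.8, 18.1 and 25.1 CPM in WT and 21.9, 34.5 and 25.4 CPM in KO, a difference of 0.15 with an interval of −0.46 to 0.75. The signs of these 3 small values changed between settings.

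Col8a1 and Col8a2, the short chains of the hexagonal network under endothelium, were at −0.17 (adjusted p = 0.477) and −0.27 (adjusted p = 0.0818). For Col8a2 the levels were 14.9, 15.9 and 17.4 CPM in WT and 14, 12.0 and 13.5 CPM in KO, without overlap. Col26a1 was at 6.74, 4.73 and 5.73 CPM in WT and 4.67, 5.12 and 4.75 CPM in KO, with a log2 fold change of −0.24 (adjusted p = 0.286). Col17a1, the transmembrane chain of hemidesmosomes, had a value of −0.48 (adjusted p = 0.0831), and Col28a1 one of −0.57 (adjusted p = 0.247). None of these 5 passed. Without WT replicate 1 Col26a1 was at −0.0546 (adjusted p = 0.949), and without WT replicate 3 Col8a1 was at −0.0135 (adjusted p = 0.940) and Col28a1 at −0.37. Col10a1, the network chain of growth plate cartilage, had 8, 4 and 0 reads in WT and 3, 13 and 4 in KO and was removed by the filter on low counts. Of the reads at Col10a1, 73.3% were on the strand opposite the gene, and its exons overlap those of Nt5dc1 there by 18 bases.

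**Figure D3:**
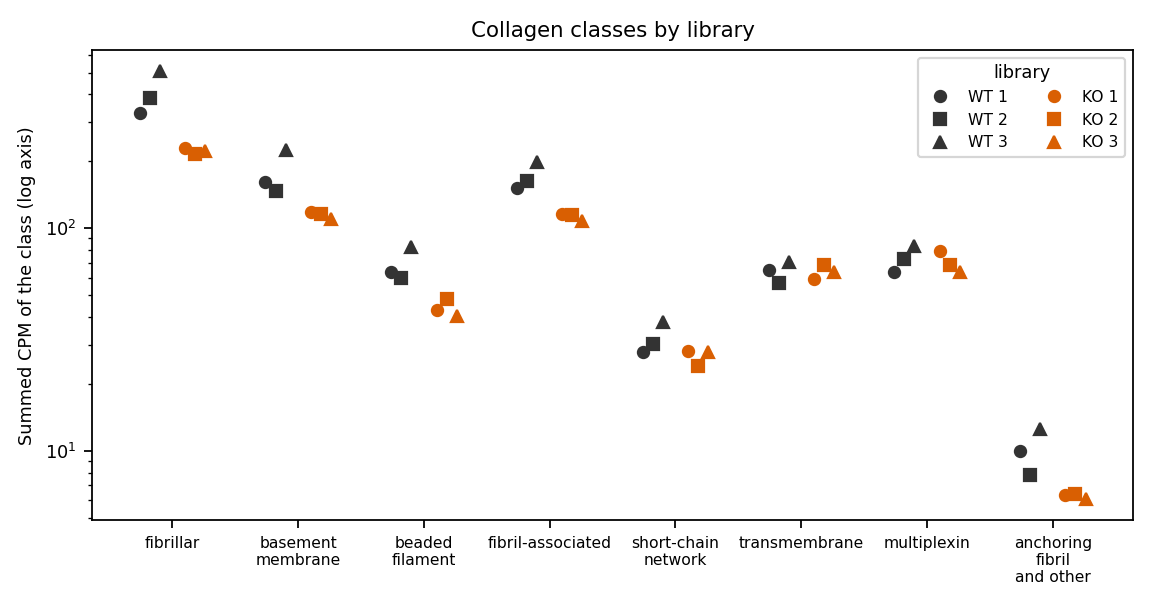
Summed CPM (log axis) of the genes of each collagen class in each library, WT in dark grey and KO in orange, with circle, square and triangle for replicates 1, 2 and 3. In the fibrillar, basement membrane, beaded filament, fibril-associated and anchoring classes the KO libraries lie below the WT libraries, and in the short-chain, transmembrane and multiplexin classes the groups overlap.

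Levels of different genes were compared per kilobase of annotated exon. In WT, Col9a3 (22.3 ± 3.0 CPM per kb, SD, n = 3) and Col1a2 (21.4 ± 4.01) were highest and did not differ beyond their spread. Col1a1 (16.1 ± 5.51), Col3a1 (12.0 ± 2.62), Col4a1 (11.9 ± 2.68), Col4a2 (9.39 ± 2.17) and Col18a1 (9.27 ± 1.37) followed, each within the spread of its neighbour. In KO, Col9a3 (16.7 ± 0.442 CPM per kb) was above Col1a2 (14 ± 0.632) by more than their SDs. Col18a1 (9.51 ± 1.11) ranked 3 there and 7 in WT, and in KO stood ahead of Col1a1 (7.17 ± 0.793), Col4a1 (7.10 ± 0.591), Col4a2 (6.28 ± 0.296) and Col3a1 (6.10 ± 0.123). The other classes were led, over all 6 libraries, by Col23a1 (5.95 CPM per kb), Col6a1 (4.85), Col8a2 (3.37) and Col26a1 (1.90). At the low end 4 tested genes had a mean under 1 CPM.

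Ratios between partner chains of one trimer were compared next. The log2 ratio of reads per exonic kb was computed within each library for 9 pairs, which needs no scaling between libraries. In 5 pairs the KO and WT libraries did not overlap, with a two-sided exact permutation p of 0.1, the smallest that 3 against 3 libraries can give, and an adjusted p of 0.18 over the 9 pairs. Lack of overlap was common in these data. Among all tested genes, the CPM of all KO libraries lay below all WT libraries in 20.5% and above them in 18.9%. These shares are for levels, and none was computed for ratios of other gene pairs. Col11a1 to Col11a2 stood at −1.50, −1.69 and −1.80 in WT and at −2.73, −2.42 and −2.32 in KO, a difference of −0.83. Col9a1 to Col9a2 went from −1.93 ± 0.0685 to −2.59 ± 0.195 (SD, n = 3 each), a difference of −0.66. Col1a1 to Col1a2 was at −0.78, −0.31 and −0.27 in WT and −0.96, −1.10 and −0.86 in KO, a difference of −0.52. The ratio of Col5a1 to Col5a2 differed the other way, by 0.51, at −0.02, −0.04 and −0.42 in WT and 0.43, 0.44 and 0.19 in KO. Among the WT libraries of this pair, WT replicate 3 stood apart as the lowest. Col4a1 to Col4a2 was nearly the same in all WT libraries (0.34, 0.35 and 0.33) and lower in KO (0.25, 0.15 and 0.12), a difference of −0.17. In Col4a3 to Col4a4, Col4a5 to Col4a6, Col6a1 to Col6a2 and Col8a1 to Col8a2 the groups overlapped, with differences of 0.23, 0.12, −0.12 and 0.07 and exact permutation p of 0.4 to 0.7. No pair can pass the threshold in a test of this size.

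**Figure D4:**
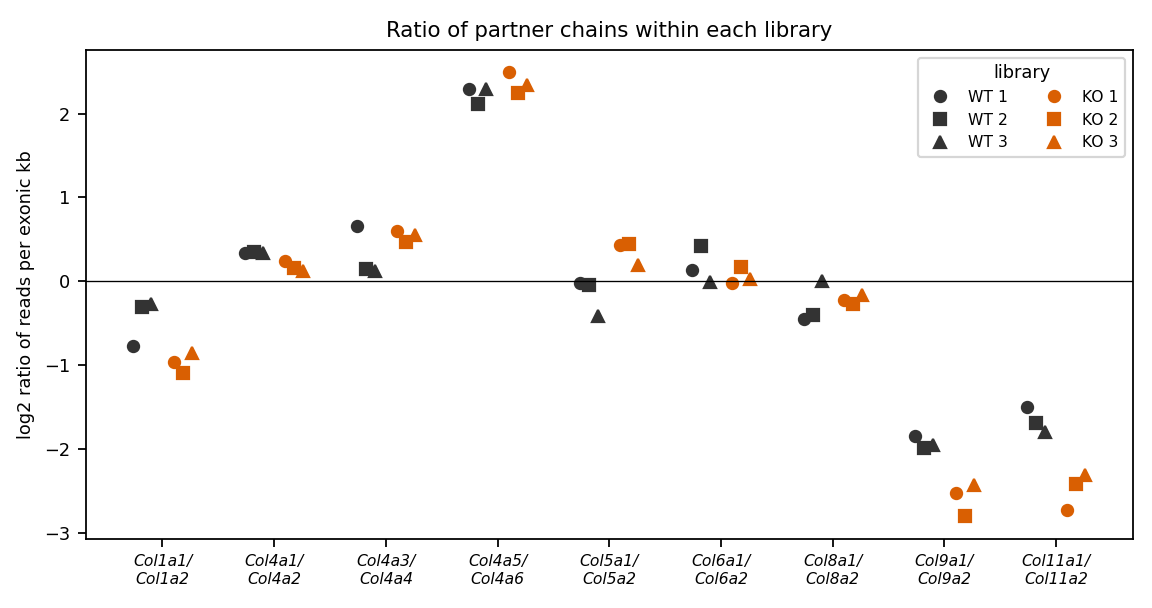
Log2 ratio of reads per exonic kilobase (y axis) of 9 pairs of partner chains in each library, WT in dark grey and KO in orange, with circle, square and triangle for replicates 1, 2 and 3. The KO points lie below the WT points for Col1a1/Col1a2, Col4a1/Col4a2, Col9a1/Col9a2 and Col11a1/Col11a2, above them for Col5a1/Col5a2, and overlap them in the other pairs.

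Falls tended to be deeper in collagens with more exons, with exceptions. Across the 43 genes the Spearman correlation of the log2 fold change with the number of exons was −0.48, and over 14918 tested genes with a matched gene model it was −0.20. The points share libraries and, in part, class, so this is a description. The collagens had a median of 48 exons and all matched genes 9. Correlations with GC content (0.13), exonic length (−0.21), gene span (0.11) and the share of the gene that is intron (0.15) were weaker, and with the share of 54-base exons the value was −0.35. The tested genes with the fewest exons, Col8a1 and Col8a2 (4 each) and Col26a1 (13), were among those that did not pass, while Col7a1 had 119 and Col16a1 70. Other genes went against the trend. Col22a1 with 64 exons did not pass, at −0.35. Col5a1 (66 exons), Col11a2 (66) and Col5a3 (67) were at −0.62, −0.57 and −0.61, while Col6a2 with 28 was at −0.59. The part of exon number in the falls was not tested.

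**Figure D5:**
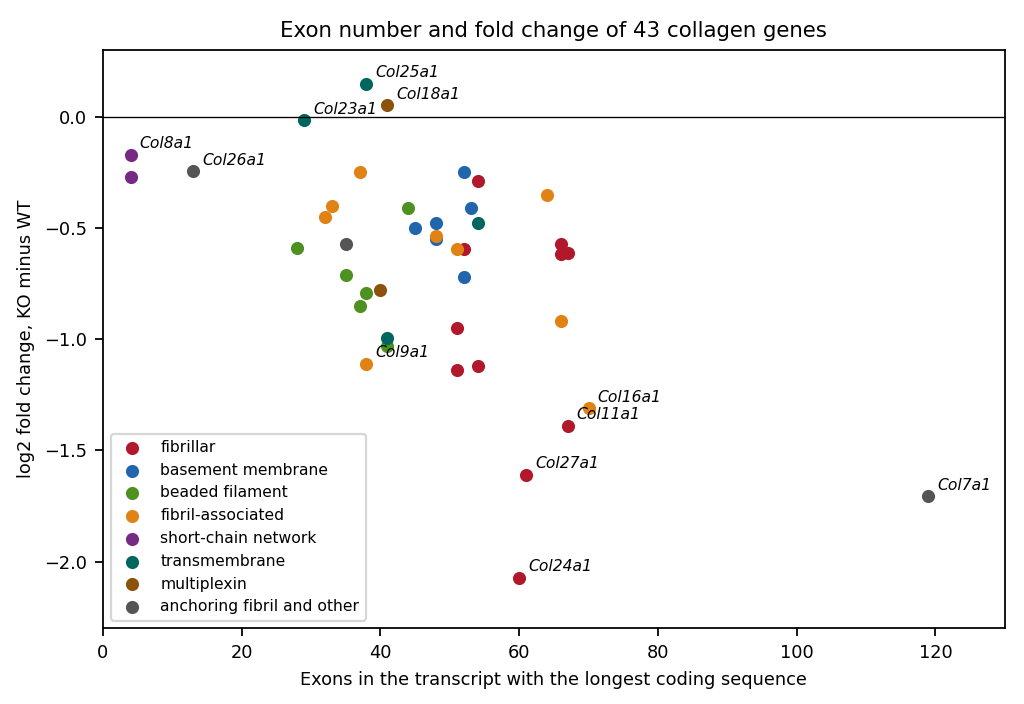
Log2 fold change (KO minus WT, y axis) of the 43 tested collagen genes against the number of exons in the GENCODE transcript with the longest coding sequence (x axis), coloured by class. Col24a1, Col27a1, Col11a1 and Col16a1 have 60 to 70 exons and Col7a1 has 119, while Col8a1 with 4 and Col26a1 with 13 are close to 0. Col22a1, Col5a1, Col5a3 and Col11a2, with 64 to 67 exons, have smaller falls than the first group.

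Reads on the strand opposite the collagen genes made up 0.685% to 1.19% of reads in the 2 strand columns of a library. Only Col10a1 and Col17a1 (20.7%) were above 10% over all libraries. The opposite strand of Col17a1 had 42, 30 and 8 reads in WT and 11, 8 and 12 in KO.

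Genes that modify, fold and cleave collagen were measured alongside. Of 18 genes of procollagen modification and folding 5 fell, 0 rose and 13 did not pass (median −0.15). P3h3, a prolyl 3-hydroxylase family member, fell by 0.91 (SE 0.10; adjusted p = 3.73e-04), from 14.1 ± 0.102 to 7.53 ± 0.727 CPM (SD, n = 3 each). Serpinh1, the collagen chaperone, had a value of −0.52 (SE 0.09; adjusted p = 0.00464), and Colgalt1, which glycosylates hydroxylysine, one of −0.44 (SE 0.08; adjusted p = 0.00712). Of 14 genes of propeptide cleavage and cross-linking 2 fell and 12 did not pass (median −0.00). They were Bmp1, the C-propeptide protease (86.6 ± 7.86 to 55.4 ± 1.78 CPM; −0.65, SE 0.08; adjusted p = 5.19e-04), and its enhancer Pcolce (−0.45, SE 0.12; adjusted p = 0.0355). Pxdn, which cross-links type IV collagen, was at 0.31 (adjusted p = 0.0512).

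Of 10 collagen receptor genes 4 fell, 1 rose and 5 did not pass (median −0.32). The gene that rose was Adgrg1, at 93.1 CPM in WT and 112 CPM in KO (0.26, SE 0.07, adjusted p = 0.0368). Those that fell included Ddr2, a receptor kinase for fibrillar collagen (−0.62, SE 0.08; adjusted p = 0.00104), and the integrin subunits Itga1 (−0.63, SE 0.09; adjusted p = 0.00137) and Itga10 (−0.69, SE 0.13; adjusted p = 0.00741). Of 16 other basement membrane genes 5 fell, 1 rose and 10 did not pass (median −0.26). The gene that rose was Sparc, at 1098 CPM in WT and 1311 CPM in KO (0.26, SE 0.07, adjusted p = 0.0395). Sparc had the most reads of the list, which summed to 1617 to 1698 CPM in WT and 1686 to 1814 CPM in KO. The laminin chains Lama4 (−0.82, SE 0.10; adjusted p = 4.45e-04), Lama2 (−0.35, SE 0.07; adjusted p = 0.00805) and Lamb1 (−0.44, SE 0.10; adjusted p = 0.0142) were among those that fell. Of 8 tested proteases and inhibitors 0 fell, 2 rose and 6 did not pass (median 0.23): the inhibitor Timp4 (0.37, SE 0.09; adjusted p = 0.0180) and the gelatinase Mmp2 (0.47, SE 0.14; adjusted p = 0.0424). The shares of all genes lower (10.2%) and higher (6.43%) are the background for each of these lists.

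Markers of vascular, meningeal and other brain cell types were measured beside the collagens, and each listed gene had reads. Over all tested genes, 10.2% were lower and 6.43% higher by the same test. Of 12 endothelial genes 11 fell and 1 did not pass (median −0.50), and their summed level was 224 to 250.4 CPM in WT and 164 to 168 CPM in KO. Slco1a4, a transporter (−0.65), and the junction genes Cldn5 (−0.65) and Esam (−0.69) had the smallest p. Of 11 mural cell genes 6 fell (median −0.44; 234 to 256 CPM in WT, 188 to 194 CPM in KO), including Vtn (−0.67), Rgs5 (−0.44) and Abcc9 (−0.44). Of 16 meningeal fibroblast genes other than collagens 5 fell, 0 rose and 11 did not pass (median −0.31), and the sums were 544 to 700.2 CPM in WT and 480 to 512 CPM in KO. They included Ogn (−0.50), Islr (−0.39) and Foxc1 (−0.37). Beside these medians, those of the collagen classes were −0.95 for fibrillar, −0.53 for fibril-associated and −0.49 for basement membrane chains, and differences between lists were not tested. Choroid plexus epithelium had 0 of 9 genes past the test in edgeR, a median of −0.02, and sums of 2044 to 2356 CPM in WT and 1881 to 2295 CPM in KO. In 2 of the 9 (Enpp2 and Kcnj13) all KO libraries lay below all WT libraries, against 20.5% of all genes. The granule neuron list had 1 gene lower of 9 (11.1%, near the share of all genes) and a median of −0.33. Values were below 0 for 8 of the 9, against 50.8% of all genes, and in 1 of the 9 all KO libraries lay below all WT libraries. The 8 oligodendrocyte genes had 0 past the test in edgeR and a median of 0.18. In 4 of the 8 all KO libraries lay above all WT libraries, against 18.9% of all genes. The sums of the 8 genes did not overlap between groups, at 20933 to 23876 CPM in WT and 26683 to 28752 CPM in KO. Of 8 Purkinje cell genes 1 rose (median 0.16), and in 2 all KO libraries lay above all WT libraries. Of 8 Bergmann glia and astrocyte genes 1 fell (12.5%, also near the share of all genes), with a median of 0.02. In 1 of these 8 all KO libraries lay below all WT libraries. The part of cell makeup in the collagen values was not tested.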

How the data were processed

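RNA of 6 cerebellum libraries (3 WT, 3 KO) was analysed from tables of reads per gene. The authors deposited raw counts, 1 table per library, and Trimmomatic, STAR and mm10 are named in the submitters' processing notes, with versions, annotation and strand setting not given in the sources used here. Counts of the fourth column, the heavier strand, were used; the 4 summary lines stayed out of library sizes and tests. Column 2, without regard to strand, served as an alternative, and column 3 holds the opposite strand. Reads in introns are not counted for a gene.

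Low counts were filtered with edgeR's filterByExpr (15519 of 24411 genes left). Libraries were scaled by TMM, and the genotypes were compared in edgeR 4.0.16 (R 4.3.3) with a robust quasi-likelihood fit, adjusted by Benjamini-Hochberg over all tested genes at 0.05. Approximate standard errors came from dividing the size of each log2 fold change by √F, and intervals at 95% from the fit's degrees of freedom. CPM used the TMM-scaled sizes; 3 reads correspond to 0.0723 to 0.465 CPM. Chain ratios had 0.5 added to each count. Gene models came from GENCODE M21 (GRCm38), matched by symbol for all 44 collagens. The script was tested on simulated data. DESeq2 1.42.0 and limma 3.58.1 gave alternatives, as did other scalings, filters, covariates and leaving out each library.

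Every collagen that passed is given in full. The most abundant gene per kb of each class is given by level, fold change and adjusted p, without reads and SE where it did not pass. Other collagens are given by their fold change, with up to 3 genes with the smallest p from each other list. The receptor and basement membrane genes that rose are also named. Members and lists were chosen with earlier results of these data known.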

Additional observations from a re-analysis of the deposited data

How the results depend on the processing

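The number of collagens lower in KO was 22 in the reported fit and 12 to 22 with 1 library left out; it was 6 to 10 for fibrillar chains (reported 10), 0 to 3 for basement membrane chains (reported 2) and 6 to 10 for other classes (reported 10). The read assignment covariate gave 8, 4, 0 and 4 in this order. Sample quality weights in limma gave 4 basement membrane chains and 16 of other classes, and no filter on low counts gave 4 basement membrane chains. The cause of these shifts was not tested. Over all collagens the weights gave 30, and the other settings 17 to 24, among them a GC content and length trend removed, which was chosen after seeing the data. No collagen was higher in any setting.

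The replicate block gave 17 collagens, with 8, 1 and 8 in the 3 groups of classes, and 821 genes lower overall against 1587. Deviations of same-numbered libraries correlated at −0.18, −0.14 and −0.10, and those of differently numbered WT and KO libraries at −0.00677 to 0.13. The labels do not say that the numbers mark pairs. With 3 libraries per group, such correlations cannot settle whether the samples were paired. All 22 genes that fell stayed below 0 in all 16 alternatives, and 12 passed with each library left out. Adjusted p of the 22 ranged from 6.21e-25 to 0.652 over these alternatives.

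Signs turned with the covariate for Col2a1 (0.10), Col4a3 (0.37), Col4a4 (0.34), Col4a5 (0.0282), Col6a4 (0.23), Col6a6 (0.29), Col8a1 (0.31), Col23a1 (0.22) and Col28a1 (0.23). They also turned for Col23a1 with quality weights (0.0352). With 1 library left out, Col23a1 ranged from −0.11 to 0.0685, Col18a1 from −0.0625 to 0.14 and Col25a1 from −0.0614 to 0.41. The ratio difference of Col8a1 to Col8a2 ranged from −0.0180 to 0.21, and 5 to 6 pairs had no overlap in every setting. WT replicate 3, with the fewest reads on other genes, limits the precision for genes under 1 CPM.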
